A study of Penicillium oxalicum with 15 samples.

Results

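The genes described here were higher in the POX03016 mutant of Penicillium oxalicum than in its Ku70 comparison strain, while in the strain EU2101 they were less than 2-fold higher on the straw-type carbon source, or lower on it. They were 104 of the 9512 gene identifiers with a value in any library. Penicillium oxalicum is a mould known for the plant-cell-wall-degrading enzymes that it releases, and RNA was sequenced from mycelium in solid-state fermentation, in which the fungus grows on moist particles without free liquid. The 15 libraries formed 5 groups of 3. MuPOX03016 and MuKu70 were grown on the carbon source called WR in the growth labels. EU2101 was grown on the same source, written WB_RS in its titles and WB_RS below, on WB_AV (WB plus WA in the growth labels) and on WB alone. Every culture was kept still at 28 °C and sampled after 5 days, having received 10 g of the carbon source and 20 mL of a salt solution. The labels do not spell the carbon sources out. In work on this fungus WB, AV and RS are commonly read as wheat bran, Avicel (a microcrystalline cellulose) and rice straw, and that reading does not come from the labels. Nor do the labels say how the mutants were made, whether a strain is 1 clone, or whether replicates were separate cultures. The p-values therefore reflect no more than how much these samples varied, and that variation may be technical.

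Fungi switch sets of genes on and off with the carbon source through transcription factors, proteins that bind DNA and raise or lower transcription of their targets. The loss of such a factor can lower the genes it activates and raise the genes it holds down, and it can also change genes further down the chain that it never binds. Ku70 helps cells rejoin broken DNA ends, and moulds that lack it are often used as parents for gene deletions because introduced DNA then integrates more precisely. The series as a whole was built to look for regulators of the genes for cellulose- and hemicellulose-degrading enzymes, and POX03016 is the identifier carried in the mutant's name. The files give identifiers alone and none could be paired with a gene product, so no function is given for any gene here.

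POX03016 itself was lowest in the strain named after it. It stood at 18.47, 19.93 and 17.9 FPKM (fragments per kilobase of gene, scaled to the library's depth) in MuPOX03016, against 87.37, 138.97 and 88.88 FPKM in MuKu70. The groups did not overlap, and the log2 fold change was -2.33 (adjusted p = 0.0012, edgeR quasi-likelihood test).

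Membership rested on measured FPKM, an unlisted gene counting as 0. A member had a ratio of group means, each plus 1, of at least 2 for MuPOX03016 over MuKu70, 3 mutant libraries above all 3 MuKu70 libraries, a mutant mean of at least 10 FPKM, and a ratio below 2 for WB_RS over WB in EU2101. Its estimated count also had to lie within 0.01 of a whole number in the 6 mutant and MuKu70 libraries, a sign that reads had not been divided between genes. Of 5546 genes with whole counts and a mutant mean of at least 10 FPKM, 156 (2.81%) met the conditions on the mutant contrast. WB_RS over WB was at least 2 for 52 of these, which left the 104 members. Another 26 genes met every condition but the one on whole counts, and 19 met every condition except that their libraries overlapped.

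**Figure D1:**
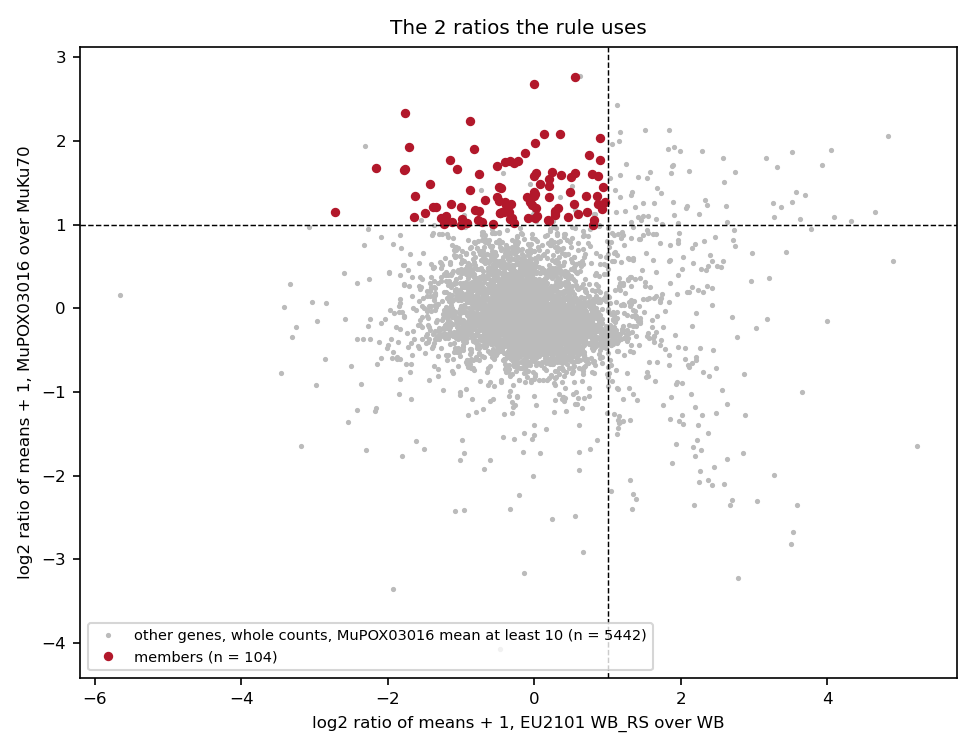
Each point is a gene with whole counts and a MuPOX03016 mean of at least 10 FPKM. The horizontal axis is the log2 ratio of means plus 1 for WB_RS over WB in EU2101 and the vertical axis the same for MuPOX03016 over MuKu70. Dashed lines mark the limits of the rule, and the 104 members (red) fill the upper left, where the grey points that remain had overlapping libraries.

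Genes lay close to the limits on both sides. Just inside the limit on the mutant ratio lay POX09106 and POX07277, both at 2 after rounding, and just outside lay POX01304 at 1.99 and POX02224 at 1.99. Just inside the limit on the mutant mean lay POX09556 at 10.1 FPKM and POX01266 at 10.1 FPKM, and just outside lay POX08414 at 9.06 FPKM and POX00128 at 8.12 FPKM. Just inside the limit on WB_RS over WB lay POX04276 at 1.96 and POX09735 at 1.92, and just outside lay POX03540 at 2.04 and POX07419 at 2.08.

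Most members differed modestly between the mutant and MuKu70. The ratio had a median of 2.43 and ran from 2 to 6.81. It was under 2.5 in 54 members, at least 3 in 30 and at least 4 in 7. Mutant means ran from 10.1 to 6856 FPKM with a median of 90.3 FPKM, and MuKu70 means from 0.63 to 2350 FPKM with a median of 36.0 FPKM. The lowest mutant library stood above the highest MuKu70 library by a factor of 1.00 to 5.39, with a median of 1.71. In edgeR 95 of the 101 members that could be tested were called higher, against 10.8% of all 7931 tested genes, while POX01266, POX05895 and POX06527 had too few counts to be tested. The rule used that contrast, so nothing is read from the count.

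The members took 4.14%, 3.33% and 3.94% of the FPKM sum in the 3 MuPOX03016 libraries, against 1.35%, 1.49% and 1.36% in MuKu70. Without POX07408 and POX09289, the most abundant pair, the shares averaged 2.18 ± 0.19% in MuPOX03016 and 0.89 ± 0.13% in MuKu70 (SD, n = 3). In EU2101 all members together took 1.53 ± 0.14% on WB_RS, 2.05 ± 0.53% on WB_AV and 1.76 ± 0.24% on WB (SD, n = 3). The spread between replicates is a description here, because the condition that mutant and MuKu70 libraries do not overlap favours genes with a small spread in those strains. The coefficient of variation had a median over members of 18.1% in MuPOX03016, 24.0% in MuKu70, 27.4% on WB_RS, 37.0% on WB_AV and 38.5% on WB. MuKu70 replicate 1 held the highest MuKu70 value for 3 members, replicate 2 for 63 and replicate 3 for 38. In the mutant, replicate 2 was highest for 14 members, replicate 1 for 49 and replicate 3 for 41.

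**Figure D2:**
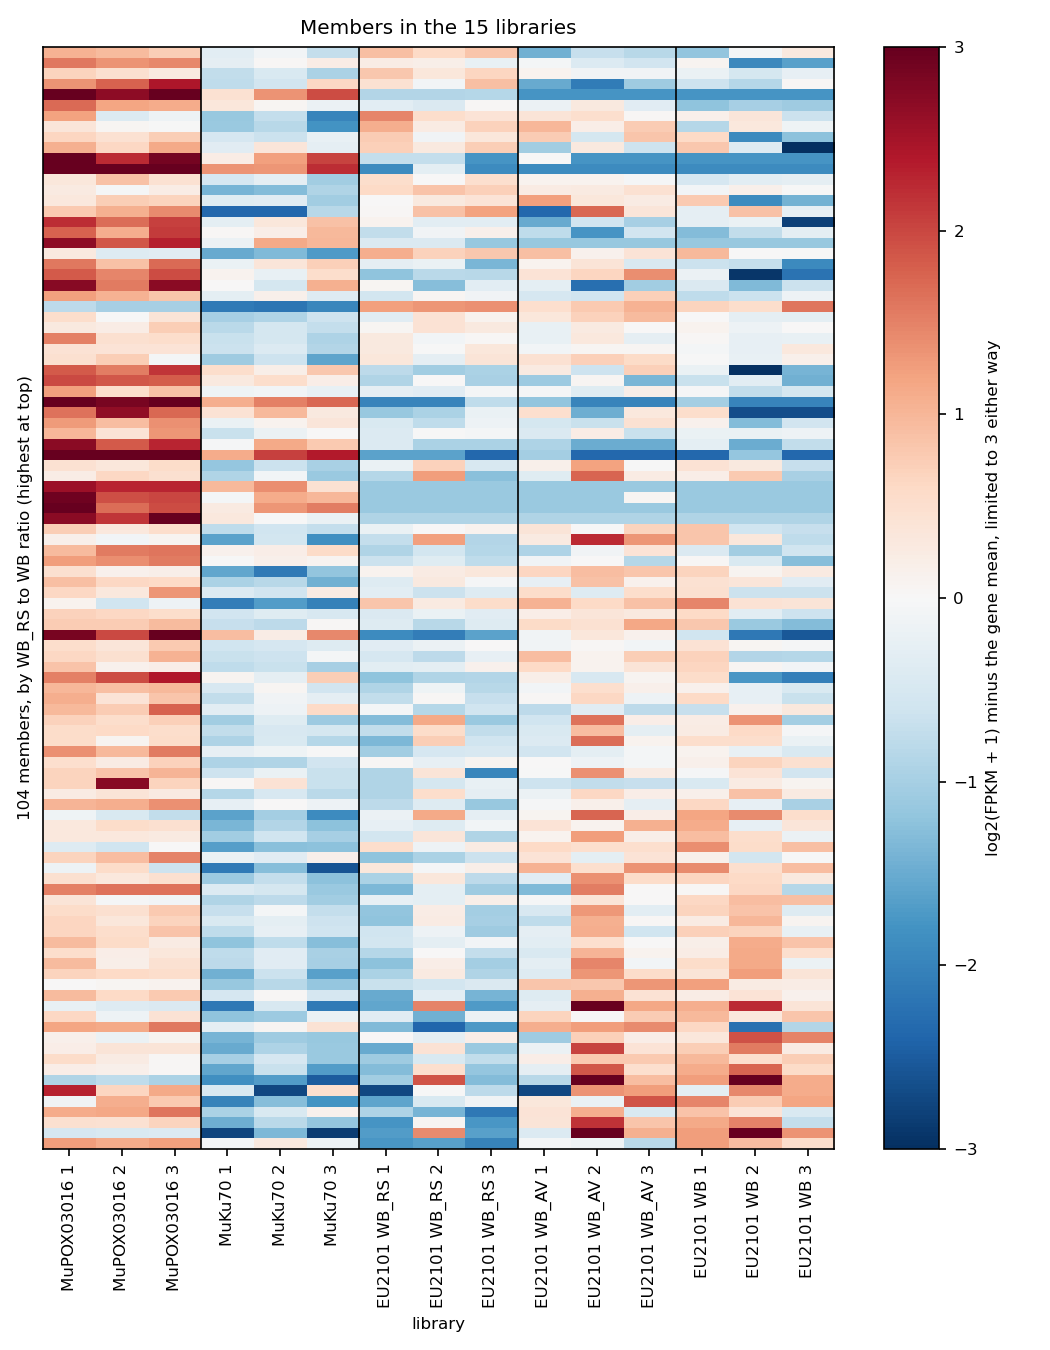
Rows are the 104 members, ordered by WB_RS over WB from highest (top) to lowest, and columns are the 15 libraries. Colour gives log2(FPKM + 1) minus the mean of the gene over all libraries, limited to 3 either way. In every row the mutant columns lie above the MuKu70 columns, which the rule fixes, while the EU2101 columns vary by row and by replicate.

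The 8 members with the highest mutant means are described next, and 11 members in all averaged at least 500 FPKM in the mutant. POX07408 stood at 7263, 6779 and 6527 FPKM in MuPOX03016, against 2262, 2672 and 2114 FPKM in MuKu70. Its EU2101 means were 1266 ± 520 FPKM on WB_RS, 1168 ± 656 FPKM on WB_AV and 1108 ± 402 FPKM on WB (SD, n = 3). Replicates of a strain lay close together in the mutant and MuKu70, and the EU2101 groups overlapped one another and lay below both.

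POX09289 reached a like level with a wider spread, at 7220, 3917 and 8423 FPKM in MuPOX03016, against 1895, 1162 and 2718 FPKM in MuKu70. In both strains replicate 2 was lowest and replicate 3 highest. In EU2101 it averaged 277 ± 44.7 FPKM on WB_RS, 1086 ± 166 FPKM on WB_AV and 350 ± 267 FPKM on WB (SD, n = 3), so that its mutant mean was 23.4 times the WB_RS mean (means each plus 1).

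POX05915 followed another order. It stood at 2702, 2350 and 2034 FPKM in MuPOX03016, against 1007, 1230 and 871 FPKM in MuKu70, and at 2950, 2134 and 2633 FPKM in EU2101 on WB_RS. The mutant libraries lay in the range of EU2101 on the same carbon source, apart from replicate 3, and MuKu70 lay below both. In POX04276 too MuKu70 lay below both, although the mutant mean was the highest, with means of 731 ± 78.1 FPKM in MuPOX03016, 303 ± 65.4 FPKM in MuKu70 and 665 ± 74.1 FPKM on WB_RS (SD, n = 3).

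The other 4 lay between 641 and 990 FPKM in the mutant. POX00098 averaged 990 ± 271 FPKM in MuPOX03016 and 416 ± 103 FPKM in MuKu70, and POX07644 averaged 898 ± 215 FPKM in MuPOX03016 and 432 ± 21.3 FPKM in MuKu70 (SD, n = 3). POX07870 averaged 641 ± 283 FPKM in MuPOX03016 and 207 ± 27.5 FPKM in MuKu70, with replicate 1 of the mutant, at 968 FPKM, far above the other mutant libraries, at 470 and 484 FPKM. POX00599 averaged 771 ± 159 FPKM in MuPOX03016 and 355 ± 36.4 FPKM in MuKu70. Its high FPKM came from 397 to 585 counts per mutant library, because its effective length, the stretch over which fragments can start, was 87.4 bp.

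The 8 members with the largest ratios included some of the most weakly expressed. POX01266 had the largest, 6.81, at 7.87, 9.69 and 12.75 FPKM in MuPOX03016, against 0, 0 and 1.89 FPKM in MuKu70. Those values stood on 17 counts in MuPOX03016 and 1 in MuKu70, a ratio per library total of 17.5 with an exact 95% interval of 2.73 to 729 for counting error only. It was also read in EU2101, at 4.25, 8.42 and 10.78 FPKM on WB_RS.

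POX09604 had a ratio of 6.43, at 11.25, 7.28 and 16.01 FPKM in MuPOX03016, against 1.35, 0.86 and 0.63 FPKM in MuKu70, and it was not listed in any EU2101 library. POX06527 had a ratio of 5.04 on 31 counts in MuPOX03016 and 4 in MuKu70. POX08846 was read more deeply, with 199 to 235 counts in each mutant library and 27 to 54 in each MuKu70 library. It stood at 28.02, 30.54 and 30.46 FPKM in MuPOX03016, against 6.67, 6.07 and 3.71 FPKM in MuKu70, a ratio of 4.73.

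POX08305 was the most strongly expressed of the 8 with the largest ratios. It stood at 71.59, 96.44 and 152.56 FPKM in MuPOX03016, against 15.7, 17.91 and 42.36 FPKM in MuKu70. Replicate 3 was highest in both strains. POX05262 averaged 44.6 ± 17.7 FPKM in MuPOX03016 and 9.72 ± 6.198 FPKM in MuKu70, POX09566 averaged 45.2 ± 15.5 FPKM in MuPOX03016 and 9.88 ± 2.29 FPKM in MuKu70, and POX09814 averaged 75.9 ± 22.0 FPKM in MuPOX03016 and 18.6 ± 7.83 FPKM in MuKu70 (SD, n = 3).

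**Figure D3:**
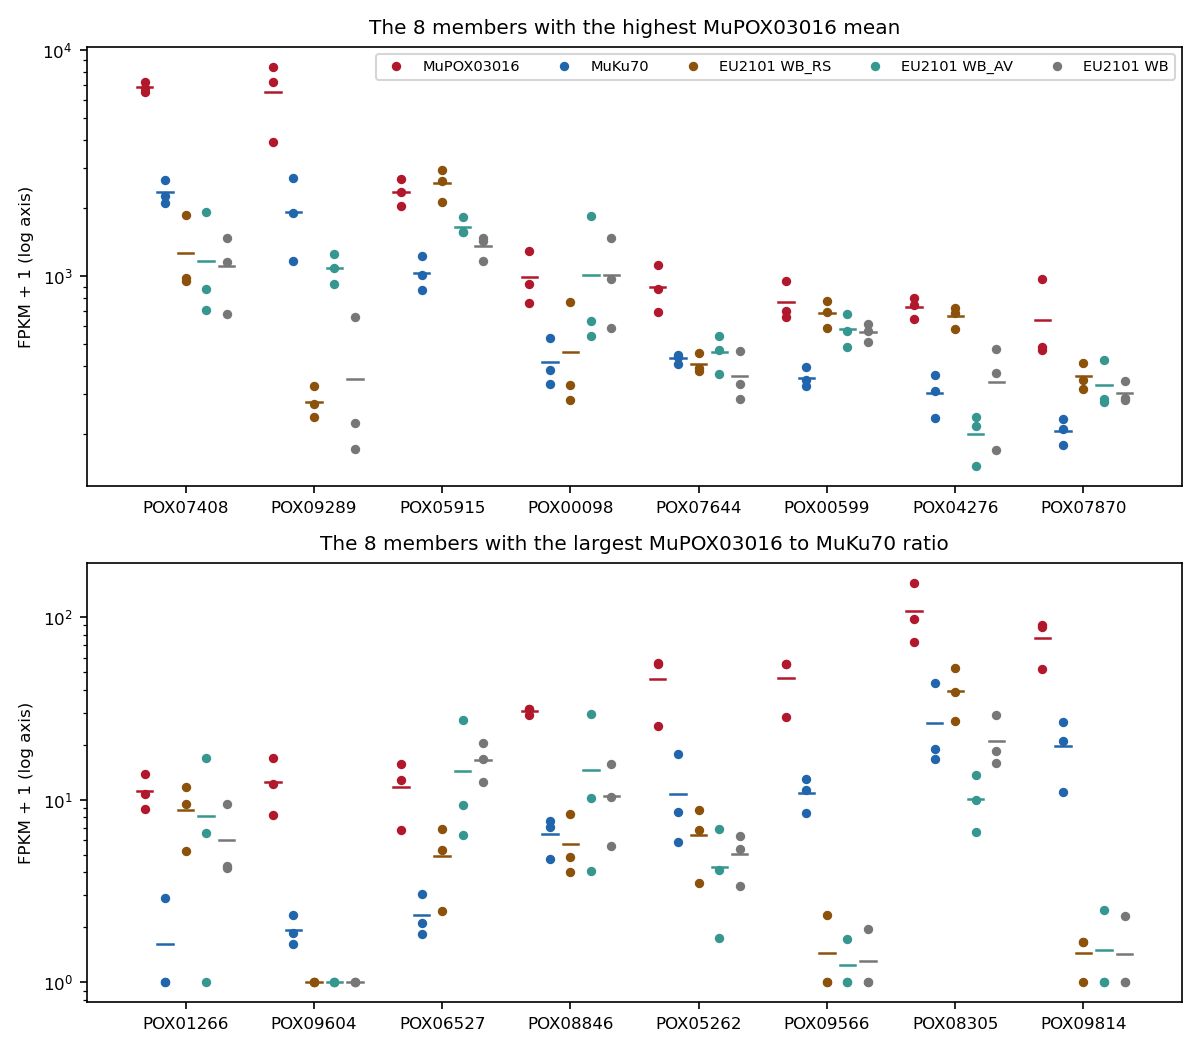
FPKM plus 1 (log axis) of each library (points) and the group mean (bars) for the 8 members with the highest MuPOX03016 mean (upper) and the 8 with the largest ratio to MuKu70 (lower). The order of EU2101 relative to MuPOX03016 and MuKu70 changes from gene to gene, from POX05915, where WB_RS averages 2573 FPKM, to POX09604, which is listed in no EU2101 library.

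Setting the members beside EU2101 on the same carbon source crosses a difference in the gene models behind the files. The effective length, taken from the ratio of count to FPKM, could be compared for 86 members. It was the same in both sets of files, within 20 bp of a common shift, for 71 of them (82.6%, against 71.2% of 7290 genes) and longer in the mutant and MuKu70 files for 15. The mutant, MuKu70, WB_RS and WB all enter the rule, and members were chosen for high mutant values. A larger share above EU2101 than over other genes is partly fixed by that choice. The following levels are therefore a description.

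Measured against WB_RS, the members fell into 3 orders. WB_RS lay above the mutant in 14 members, between the mutant and MuKu70 in 43, and at or below MuKu70 in 47. Among the 71 members of equal length the counts were 12, 35 and 24. These orders were not counted over other genes, and the gap of at least 2-fold that the rule sets between the strains widens the middle order. The mutant mean was at least 2-fold above WB_RS in 55 members, or 52.9%, against 9.48% of the 5546 genes with whole counts and the same mutant minimum. MuKu70 was at least 2-fold above WB_RS in 19 members (18.3%, against 9.34% of those genes) and at least 2-fold below it in 22 (21.2%, against 8.64%). For 39 members all 3 mutant libraries lay above all 9 EU2101 libraries, against 13.4% of the same genes, and for 65 they lay above the 3 WB_RS libraries, against 24.4%.

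In 22 members MuKu70 stood at least 2-fold below EU2101 on WB_RS. The mutant mean lay within 2-fold of WB_RS in 19 of these, as in POX05915 and POX04276. The rule puts the mutant at least 2-fold above MuKu70, so much of this closeness follows from the choice of members. Nothing is read from the count. Of these 22 members 18 had equal lengths, and 17 of the 18 lay within 2-fold. POX02739 is another, with 288, 349 and 199 FPKM in MuPOX03016, against 98.4, 133 and 68.4 FPKM in MuKu70, beside 261, 172 and 270 FPKM in EU2101 on WB_RS. It was chosen for mention after its values were seen. The mutant overlapped WB_RS there and MuKu70 lay below all of them.

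The smallest mutant levels relative to WB_RS were those of POX04036, POX06963 and POX00836. POX04036 averaged 10.7 ± 0.93 FPKM in MuPOX03016, 4.22 ± 0.42 FPKM in MuKu70 and 53.9 ± 3.08 FPKM on WB_RS (SD, n = 3). It had equal lengths in both sets of files, and the mutant stayed far below EU2101 while lying above MuKu70. The effective length in the EU2101 files minus that in the mutant files, less the common shift, was -1056 bp for POX06963 and -992 bp for POX00836. For these members the strain and the gene model cannot be told apart. The counts of POX06963 also overlapped between the mutant (234 to 246) and MuKu70 (90 to 240). Its FPKM did not, at 24.81 to 28.43 in the mutant and 7.88 to 14.59 in MuKu70. Library totals were alike in the 2 strains, so its effective length also differed among these libraries, and its FPKM gap is not one of counts alone. POX06963 was not called in the mutant contrast (log2 fold change 0.87, adjusted p = 0.0932, edgeR quasi-likelihood test).

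At the other end were 11 members that were nearly silent in EU2101, with a mean under 1 FPKM in each of its 3 groups. They were chosen for description after their values were seen, and they made up 11 of only 18 such genes among the 5546. POX09814, POX09566 and POX09460 had the largest mutant levels relative to WB_RS. POX09814 stood at 89.93, 50.63 and 87.25 FPKM in MuPOX03016, against 10.09, 20.05 and 25.54 FPKM in MuKu70, and gave 5 counts in the 9 EU2101 libraries together. POX09460 stood at 44.3, 34.9 and 46.15 FPKM in MuPOX03016, against 8.4, 8.37 and 16.15 FPKM in MuKu70, with 2 counts in EU2101. In each of the 3 the mutant lay above MuKu70, and MuKu70 above every EU2101 library.

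Of these 11, POX09604, POX09569 and POX09808 gave no count at all in EU2101. With the WB_RS and WB means both under 1 FPKM, the added 1 by itself keeps the WB_RS over WB ratio below 2. A gene missing from the gene models behind the EU2101 files cannot be told apart from a gene that is not expressed there. Identifiers numbered 9400 or above held 10 of the 11, and 14 of the 104 members (13.5%) against 188 of the 5546 genes (3.39%). Such numbers were also held by 11 of the 18 genes among the 5546 that were nearly silent in EU2101, members included. The limit of 9400 was not planned, so nothing is read from these shares. Of the 11 members, the one with a lower number was POX03913. It stood at 33.23, 20.79 and 33.78 FPKM in MuPOX03016, against 3.64, 7.64 and 12.21 FPKM in MuKu70.

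**Figure D4:**
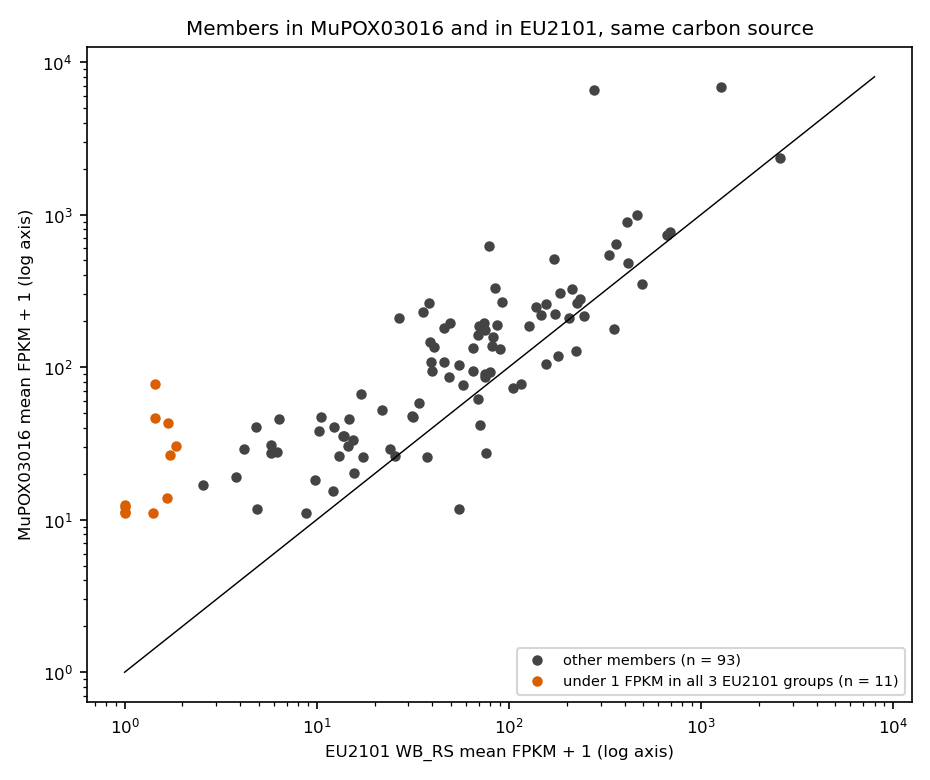
Mean FPKM plus 1 of each member in MuPOX03016 (vertical) against EU2101 on WB_RS (horizontal), on log axes, with the line of equal levels. Orange points are the 11 members under 1 FPKM in all 3 EU2101 groups; 14 members lie below the line.

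The rule caps the response to WB_RS but leaves its lower side free. It left out genes raised at least 2-fold, while the genes set beside the members were not limited so. Nothing is read from the shares below. WB_RS was at least 2-fold below WB for 21 members (20.2%), against 6.71% of the 5546 genes, and less than 2-fold below it for another 38. By edgeR, 7 of the 89 members tested were lower on WB_RS (7.87%), against 7.61% of all 8079 tested genes, a share near the background. Another 3 members, POX02843, POX05915 and POX07932, were called higher with ratios still under the limit of 2 (3.37%, against 8.66% of all tested genes). POX05915 stood at 2950, 2134 and 2633 FPKM on WB_RS, against 1474, 1165 and 1433 FPKM on WB.

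POX08821 fell furthest on WB_RS. It stood at 80.5, 86.93 and 66.82 FPKM on WB_RS, against 651, 516 and 389 FPKM on WB. The same gene stood at 644, 588 and 634 FPKM in MuPOX03016, against 261, 334 and 244 FPKM in MuKu70. The mutant on WR lay in the range of EU2101 on WB, and both strains lay above EU2101 on WB_RS.

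WB_AV is the group that the rule does not use, although WB, its comparison, enters the rule as the denominator of the limit. No member was higher on WB_AV than on WB and 1 was lower in edgeR, of 89 tested, against 0.681% of 8079 genes higher and 0.495% lower. At an unadjusted p under 0.05, 11 members were higher (12.4%, against 7.97% of all tested genes) and 6 lower (6.74%, against 9.95%). DESeq2 called 5 of 86 higher (5.81%, against 3.24%) and 1 lower (1.16%, against 3.68%). On log2(FPKM + 1) limma called no member, while it called 119 of all tested genes. By group means, each plus 1, WB_AV was at least 2-fold above WB for 8 of the 104 members (7.69%, against 3.82% of the 5546 genes) and at least 2-fold below it for POX05829, POX08821 and POX08305 (2.88%, against 2.52%). The median log2 fold change in edgeR was 0.13 over the members and 0.01 over all tested genes. It turned to -0.10 without WB_AV replicate 2, which held the highest WB_AV value for 53 of the 104 members.

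The member called lower was POX08821, the one that fell furthest on WB_RS. It stood at 262, 249 and 153 FPKM on WB_AV, against 651, 516 and 389 FPKM on WB, and the groups did not overlap. The log2 fold change was -1.25 (SE 0.25, adjusted p = 0.0469, edgeR quasi-likelihood test). The call was lost when any library of these groups other than WB replicate 1 was left out, with adjusted p between 0.066 and 0.159, and adjusted p was 0.0098 without WB replicate 1.

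Same-numbered libraries of WB_AV and WB shared part of their deviation from the group means, and with the replicate number as a block 4 members rose (4.49%, against 2.95% of all tested genes) and 2 fell (2.25%, against 3.37%) on WB_AV. These shares lay near those of all genes, so the count says nothing particular about the members. The 6 members, apart from POX08821, were chosen for mention by this fit after its values were seen. POX04800 had the largest rise, at 89.36, 104.34 and 178.79 FPKM on WB_AV, against 58.66, 7.98 and 13.63 FPKM on WB (log2 fold change 2.41, SE 0.56, adjusted p = 0.0393 with the block and 0.0797 without it). WB replicate 1 was the high library of WB. POX09289, among the most abundant members, had a log2 fold change of 1.77 with the block (SE 0.38, adjusted p = 0.0316 with it and 0.0645 without it), at 923, 1254 and 1082 FPKM on WB_AV, against 657, 223 and 171 FPKM on WB.

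POX09819 and POX07932 were the other members that rose. POX09819 averaged 37.7 ± 4.64 FPKM on WB_AV and 11.3 ± 11.1 FPKM on WB (SD, n = 3; adjusted p = 0.0485 in edgeR with the block and 0.118 without it). POX07932 averaged 192 ± 45.1 FPKM on WB_AV and 93.5 ± 7.55 FPKM on WB (adjusted p = 0.0428 with the block and 0.094 without it). The members that fell with the block were POX08821 (adjusted p = 0.0085) and POX08305. POX08305 averaged 9.07 ± 3.47 FPKM on WB_AV and 20.1 ± 6.95 FPKM on WB (adjusted p = 0.0132 with the block and 0.131 without it).

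**Figure D5:**
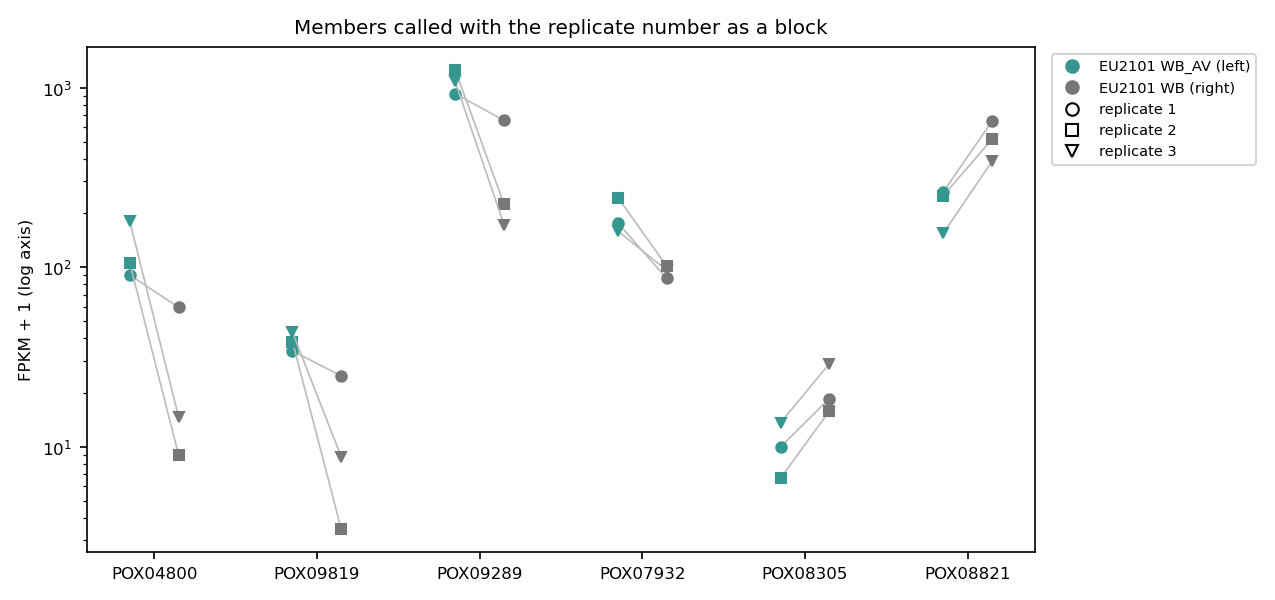
FPKM plus 1 (log axis) of the 6 members called with the replicate number as a block, on WB_AV (left of each pair) and WB (right), with lines joining libraries of the same number. In POX04800, POX09819 and POX09289 the WB library nearest to WB_AV is replicate 1.

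WB replicate 1 stood apart from its group. In log2(FPKM + 1) across the 8079 tested genes, which are not independent replicates, it correlated at 0.875 and 0.873 with WB replicates 2 and 3. WB replicates 2 and 3 correlated at 0.966 with each other. With WB_AV replicates 1, 2 and 3, WB replicate 1 correlated at 0.946, 0.934 and 0.927, each above its values within WB. Without WB replicate 1, 14 members were called higher on WB_AV (15.7%, against 11.1% of all tested genes) and 9 lower (10.1%, against 10.6%), among 1769 called genes. It also enters the rule, which gave 98 members without it, 97 of them shared with the 104.

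A minority of the members had consecutive identifiers. How often an equal number of other genes would have them was not counted, so the count below is not called high or low. Consecutive numbers are not shown to be neighbours in the genome by these files. Of the 104 members 12 had a member next to them in number, in 6 pairs, and POX09554 and POX09556 had 1 number between them, with no run longer than 2 members. POX06602 and POX06603 had nearly the same pattern, at 44.8, 36.2 and 73.6 FPKM and at 98.4, 89.96 and 132 FPKM in MuPOX03016, against 21.3, 19.0 and 34.4 FPKM and 40.1, 41.1 and 60.8 FPKM in MuKu70. Mutant replicate 3 and MuKu70 replicate 3 were highest for both genes.

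POX06963 and POX06964 were a pair that varied widely among EU2101 replicates. POX06964 stood at 113, 118 and 121 FPKM in MuPOX03016, against 23.3, 63.1 and 21.5 FPKM in MuKu70. In EU2101 it stood at 50.1, 433 and 51.6 FPKM on WB_RS, at 122, 2023 and 343 FPKM on WB_AV, and at 389, 1613 and 413 FPKM on WB. Replicate 2 was the highest library in MuKu70 and in every EU2101 group. POX06963 had its highest value in replicate 2 of each EU2101 group as well, at 183 FPKM on WB_RS, 479 FPKM on WB_AV and 486 FPKM on WB. POX03016 showed the same order, with 241 FPKM in replicate 2 on WB_RS, 445 FPKM on WB_AV and 499 FPKM on WB, against 75.5 to 214 FPKM in the other EU2101 libraries.

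The remaining pairs had MuPOX03016 over MuKu70 ratios from 2 in POX09106 to 3.43 in POX03913. POX00700 averaged 157 ± 9.21 FPKM in MuPOX03016 and 73.9 ± 5.87 FPKM in MuKu70, and POX00701 averaged 34.3 ± 2.92 FPKM in MuPOX03016 and 13.8 ± 4.84 FPKM in MuKu70 (SD, n = 3). POX03912 averaged 186 ± 28.4 FPKM in MuPOX03016 and 78.7 ± 4.54 FPKM in MuKu70, and its partner is POX03913, nearly silent in EU2101. POX09105 averaged 26.8 ± 5.25 FPKM in MuPOX03016 and 8.06 ± 3.56 FPKM in MuKu70, and POX09106 averaged 19.1 ± 3.64 FPKM in MuPOX03016 and 9.07 ± 2.88 FPKM in MuKu70. POX09343 averaged 92.0 ± 17.7 FPKM in MuPOX03016 and 45.0 ± 4.02 FPKM in MuKu70, while POX09344 averaged 102 ± 24.4 FPKM in MuPOX03016 and 31.3 ± 6.67 FPKM in MuKu70. POX09554 averaged 13.0 ± 4.20 FPKM in MuPOX03016 and 3.54 ± 1.72 FPKM in MuKu70, and POX09556 averaged 10.1 ± 3.11 FPKM in MuPOX03016 and 2.72 ± 1.54 FPKM in MuKu70.

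The genes outside the membership with the profile most like the members' mean profile over the 15 libraries were POX04405 (Pearson r = 0.889) and POX08437 (r = 0.873), among 7376 genes with a mean of at least 10 FPKM. Over the 90 members that met that mean, r had a median of 0.608 and ran from -0.15 to 0.951. The mean profile was made from the members themselves, so their r is a description. Libraries of a group share strain and carbon source, so the 15 libraries are not independent points. POX04405 averaged 532 FPKM in MuPOX03016 and 275 FPKM in MuKu70, a ratio of 1.94, just short of the limit.

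A list of 11 further identifiers, recalled from work on this fungus and with functions that the files do not give, held no member. Of these, 8 had a mutant ratio of at least 2 and 7 of the 8 had no overlap between strains. WB_RS over WB was at least 2 in all 7, which kept them out. Of the 5546 genes with whole counts and the same mutant minimum, 190 met that ratio and 156 (2.81%) also had no overlap. The list was chosen with earlier results of these data known, so nothing is read from its share. POX08484, whose counts were also not whole, averaged 953 ± 328 FPKM in MuPOX03016 and 232 ± 49.9 FPKM in MuKu70, with a WB_RS over WB ratio of 9.72. POX02740 had a WB_RS over WB ratio of 0.40 but a mutant ratio of 1.85, with libraries of MuPOX03016 at 74.7, 122 and 50.5 FPKM overlapping those of MuKu70 at 45.6, 62.1 and 24.0 FPKM.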

How the data were processed

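Each of the 15 deposited files holds, per the file headers, expected counts and FPKM by identifier for 1 library. The authors' expected counts, estimates of reads per gene, are unscaled. The FPKM values were computed by the authors, and a gene at 0 is not listed. The submitters' processing notes name, without roles, RSEM 1.2.12, Bowtie2 2.1.0, DESeq2 and BWA 0.7.10-r789. The genome build is not given in the sources used here.

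The counts of each library summed to 6.61e+06 to 7.14e+06 in MuPOX03016, 6.75e+06 to 7.34e+06 in MuKu70, and 1.78e+06 to 3.41e+06 in EU2101, where precision is lower. Members and gene lists were chosen with earlier results of these data known. Named genes are POX03016, the members with the highest mutant means, largest ratios or extreme ratios to WB_RS, those nearest the limits, members called on WB_AV, members in runs of consecutive identifiers, and the genes most like the mean profile; 4 runs were to be named, but all 7 had the same length and all are given.

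Counts were rounded and tested over all genes with edgeR 4.0.16 in R 4.3.3 (quasi-likelihood F-test after TMM scaling, genes kept by filterByExpr at 10 counts, adjusted p under 0.05 by Benjamini-Hochberg). The EU2101 contrasts were fitted over 9 libraries and the mutant contrast over 6. The standard error is the log2 fold change over the square root of F. Fits were tested on simulated data in which all genes had the same spread and no library stood apart. Nothing about the libraries used here is read from that. DESeq2 1.42.0 and limma 3.58.1 were alternatives. Members under the filter were 3 in the mutant contrast and 15 in EU2101, including all 11 that were nearly silent there, so counts called cover only the members tested. Replicate libraries all differed by more than sampling noise, with chi-square over its degrees of freedom at 7.96 or more. Deviations of same-numbered libraries correlated at 0.425 to 0.588 for WB_AV and WB, and at 0.064 to 0.466 for the mutant contrast. These ranges overlap, and the replicate numbers are not shown to pair the samples in either contrast. The main fits therefore used the group only, and fits with the replicate number as a block are given as an alternative.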

Additional observations from a re-analysis of the deposited data

How the results depend on the processing

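The number of members ranged from 86 (pseudocount 5, 80 shared with the 104) to 139 (median-ratio scaling of FPKM, 103 shared). With 1 library left out it ranged from 90 (87 shared) to 135 (98 shared). A like count could hide a change of members: without MuPOX03016 replicate 1 there were 106, of which 87 were shared. As deposited, FPKM put the median of all genes at -0.12 on the log2 scale in MuPOX03016 against MuKu70. The members' median in edgeR was 1.42, against 1.28 with library totals, under which the median of all genes was -0.14. The members higher on WB_AV were 0 in edgeR, 5 in DESeq2, 4 with the replicate block and 0 to 14 with 1 library left out. The members lower were 1 in edgeR, 0 in limma on log2(FPKM + 1), 0 in limma on log2(FPKM + 5), 0 with only the WB and WB_AV libraries, 2 with the replicate block and 0 to 9 with 1 library left out. All genes called were 95 in edgeR, 547 in DESeq2, and 119 and 124 in limma with 1 and 5 added. They were 3 with only the WB and WB_AV libraries, 510 with the replicate block and 4 to 1769 with 1 library left out. Without a library, 4 genes were called for WB_AV replicate 1, 56 for WB_AV replicate 2, 7 for WB_AV replicate 3, 1769 for WB replicate 1, 4 for WB replicate 2 and 5 for WB replicate 3. The cause was not tested. The members' median on WB_AV ran from -0.10 to 0.30 over these fits. In the mutant contrast the block gave 1797 called genes against 1456 without it, and 97 members against 95. For POX08821 adjusted p was 0.0566 and 0.0524 in limma with 1 and 5 added, and 0.201 with only the WB and WB_AV libraries, while POX03016 kept its call in every fit of the mutant contrast. Depth limits the members with few counts: 83 members had at least 100 counts in each mutant library, and 18 had at most 20 in every EU2101 library.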
